A study of Mus musculus with 108 samples.

Results

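Gene expression in the testis of C3HeB/FeJ mice was compared with that of 5 other inbred strains on whole-genome Affymetrix mouse arrays. The C3HeB/FeJ testis arrays were found by the strain and tissue in the sample titles and are 3 of the study's arrays, of which 18 come from each of 6 tissues of 6 strains. They were set against the 15 testis arrays of C57BL/6J, A/J, AKR/J, DBA2/J and 129S2, 3 for each strain. All mice were males of 11 to 14 weeks, the RNA came from whole testis, and the labels name no treatment and no engineered allele. The 129S2 mice came from Charles River in France and the other strains from The Jackson Laboratory, so vendor and strain cannot be told apart for 129S2. The titles name 1 animal per array, although the labelling protocol speaks of pools, and p-values here measure the spread between such samples of 1 inbred line. The study's title concerns copy number variation, and copy number was not analysed here. Each gene was read from 1 probe set that is assigned to that gene alone, the one with the highest mean over all arrays, which gave 18193 genes. The genes described are the 113 of these that stood apart from each of the 5 strains in testis.

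The testis holds a seminiferous epithelium in which spermatogonia divide, enter meiosis as spermatocytes and leave it as haploid spermatids, supported by Sertoli cells, while Leydig cells between the tubules make testosterone. Germ cells use transcription factors, histone variants, proteasome subunits, metabolic enzymes and small RNA machinery of their own, many from genes that are little used elsewhere. C3HeB/FeJ is a C3H line known for the retinal degeneration allele of Pde6b, for a low-activity beta-glucuronidase (Gusb) haplotype and for high susceptibility to tuberculosis. In whole-tissue RNA, fewer cells of a type and less RNA per cell cannot be told apart.

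The 18 testis arrays had medians between 5.74 and 5.78 on the log2 scale, and arrays of the same strain correlated at 0.995 to 0.998 across probe sets. Every testis array was nearest to an array of its own strain, and at most 0.0665% of probe sets had identical values on 2 arrays of a strain. Genes of elongating spermatids, such as the protamines and transition proteins, averaged 11.60 to 11.70 on the testis arrays and at most 5.58 on any array of another tissue. The median residual SD of a gene over the testis arrays was 0.100, with 12 residual degrees of freedom, and the 3 arrays per strain limit the precision of every value.

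Start-site sequences are shown for the genes farthest from their nearest strain that have an entry in the RefSeq promoter table (GRCm38.p6), 2 in each direction. Morc1, Mybl1 and Slc25a2 lay farther than the higher genes shown and are named only. Each sequence covers 250 bases before to 50 bases after the annotated start, read 5′ to 3′ on the strand of the gene. Aass lies on the minus strand (chr6:23132937-23133236), as does 9630013D21Rik (chr4:109657539-109657838, the first of 2 listed starts). Cntn1 lies on the plus strand (chr15:92050915-92051214, the first of 3 listed starts) and Ggt7 on the minus strand (chr2:155514797-155515096). Capitals mark matches on either strand to CAACNG and its variant with a first T (TAACNG), core letters of MYB factor sites, or to the cAMP response element TGACGTCA, with no match overlapping another.
Aass: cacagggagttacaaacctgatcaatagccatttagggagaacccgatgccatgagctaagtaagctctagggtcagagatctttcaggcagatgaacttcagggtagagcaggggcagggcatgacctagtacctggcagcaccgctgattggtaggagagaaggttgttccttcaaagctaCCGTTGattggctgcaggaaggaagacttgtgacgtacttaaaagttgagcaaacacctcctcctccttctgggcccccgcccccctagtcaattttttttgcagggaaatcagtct
9630013D21Rik: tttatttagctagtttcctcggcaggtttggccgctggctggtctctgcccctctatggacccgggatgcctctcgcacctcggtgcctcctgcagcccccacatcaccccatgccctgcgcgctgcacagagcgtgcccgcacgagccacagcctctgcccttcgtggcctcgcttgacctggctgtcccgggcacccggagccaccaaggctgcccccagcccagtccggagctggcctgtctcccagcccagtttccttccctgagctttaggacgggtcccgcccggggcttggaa
Cntn1: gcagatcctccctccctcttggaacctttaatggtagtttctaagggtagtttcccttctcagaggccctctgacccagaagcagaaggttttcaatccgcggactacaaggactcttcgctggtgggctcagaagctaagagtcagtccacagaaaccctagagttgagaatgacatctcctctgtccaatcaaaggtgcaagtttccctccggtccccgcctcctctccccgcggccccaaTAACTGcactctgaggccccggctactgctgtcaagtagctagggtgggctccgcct
Ggt7: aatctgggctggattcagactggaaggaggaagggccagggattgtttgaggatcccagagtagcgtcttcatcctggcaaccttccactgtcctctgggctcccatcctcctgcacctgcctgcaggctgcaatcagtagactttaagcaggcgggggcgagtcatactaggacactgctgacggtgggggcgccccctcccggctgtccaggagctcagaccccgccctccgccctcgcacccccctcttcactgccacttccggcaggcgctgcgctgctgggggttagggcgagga
The Aass and Cntn1 windows held 1 MYB match each and the other 2 windows none, and TGACGTCA occurred in none of the 4. Of the 113 genes, 82 had a promoter entry. A MYB match was present in 38 of these (46.3%), beside 49.7% of all 27025 promoter windows of the same length. TGACGTCA was present in 3 of the 82 (3.66%), beside 507 of all windows (1.88%). A match is a stretch of letters, not a measured site.

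A difference is given throughout as the mean of the 3 C3HeB/FeJ arrays minus the mean of the 5 other strain means, in log2 units, with its standard error and the adjusted p of limma's moderated test (Benjamini-Hochberg over 18193 genes, threshold 0.05). By this contrast 911 genes were higher in C3HeB/FeJ testis (5.01% of genes tested) and 975 lower (5.36%), together 10.4%. The count of higher genes was 550 without C3HeB/FeJ array 3, and that of lower genes was 638 without C3HeB/FeJ array 1. A gene can pass because a single other strain lies far off, so a gene was called apart only where C3HeB/FeJ also differed from each of the 5 strains in the same direction, each with its own adjusted p under 0.05. This left 46 genes higher (0.253% of genes tested) and 67 lower (0.368%), 0.621% in all. In 111 of the 113 all 3 C3HeB/FeJ arrays lay beyond all 15 others, an arrangement found in 0.759% of all genes on the higher side and 0.792% on the lower side; the pairwise tests that chose the genes used the same arrays, so nothing is read from this count. The exceptions were Papss2, which makes the sulphate donor, and Tmem51, each with 1 C3HeB/FeJ array that reached the nearest array of another strain.

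Most of the 113 genes stood apart by little. The distance from C3HeB/FeJ to the nearest strain mean was at least 1 log2 unit for 9 genes, 0.5 to 1 for 26 and under 0.5 for 78, with a median size of 0.391. The nearest strain was AKR/J for 31 genes, 129S2 for 24, DBA2/J for 23, C57BL/6J for 20 and A/J for 15. In 27 genes the lower of the compared levels (C3HeB/FeJ or the mean of the others) was under a log2 signal of 6, and in 8 genes both were, so that part of the set was read from dim probe sets.

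Cntn1, which encodes the GPI-anchored adhesion protein contactin 1, had the widest separation of all. It read 5.38, 5.23 and 5.68 on the 3 C3HeB/FeJ arrays, and 8.38 to 8.60 (median 8.48) on the 15 others. The groups were separated by more than the whole range within either. The difference was -3.06 ± 0.0711, adjusted p = 6.66e-15, or 8.33-fold lower, and the nearest strain, 129S2, was -3.06 away. Its other 2 probe sets were dim and did not pass, as given below.

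Ggt7, a member of the gamma-glutamyltransferase family, read 6.00, 6.35 and 5.70 in C3HeB/FeJ and 7.51 to 7.77 (median 7.66) in the other strains. The C3HeB/FeJ arrays spread more than those of any other strain (SD 0.325, n = 3) but did not overlap them, and the difference was -1.64 ± 0.0856, adjusted p = 3.13e-10. Taf7, which encodes a subunit of the general transcription factor TFIID, read 5.95, 5.72 and 5.78 against 7.30 to 7.75 (median 7.58). Its difference was -1.75 ± 0.061, adjusted p = 1.23e-12. Lin7c, a scaffold gene of polarised membranes, was 5.26, 5.89 and 6.02 in C3HeB/FeJ and 6.95 to 7.50 (median 7.19) elsewhere, a difference of -1.47 ± 0.115, adjusted p = 5.61e-08. The C3HeB/FeJ arrays of Lin7c also spread more than those of any other strain (SD 0.410, n = 3). The standard errors pool the spread of all 6 strains, so they can be too small for such genes. A brighter probe set of Lin7c gave the opposite sign (0.38). Bbox1, the enzyme of the last step of carnitine synthesis, read 5.26, 5.02 and 4.89 against 5.91 to 6.37 (median 6.18), with a difference of -1.13 ± 0.0638, adjusted p = 8.97e-10. In all 4 genes the highest C3HeB/FeJ array lay below the lowest array of the other strains.

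Some of the genes farthest below the other strains have little known function. The predicted gene Gm19723 read 8.61, 8.42 and 8.12 in C3HeB/FeJ and 9.89 to 10.45 (median 10.14) in the others, a difference of -1.76 ± 0.0724, adjusted p = 1.18e-11. A26c3, an ankyrin-repeat gene, read 7.90, 7.95 and 8.10 against 9.19 to 9.72 (median 9.46), a difference of -1.46 ± 0.0557, adjusted p = 4.23e-12. For 4930473A02Rik the values were 5.57, 5.44 and 5.58 against 6.45 to 7.09 (median 6.70), a difference of -1.19 ± 0.0667, adjusted p = 8.03e-10. These 3 genes were read at levels above 6 in the other strains and without overlap between C3HeB/FeJ and the rest.

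Among the higher genes, Morc1 and Mybl1 lay farthest from their nearest strain. Morc1 encodes a nuclear ATPase of male germ cells that is needed for meiosis and for the silencing of transposons. It read 7.40, 7.54 and 7.32 on the C3HeB/FeJ arrays and 5.70 to 6.23 (median 5.93) on the others, with no overlap. The difference was 1.48 ± 0.0753, adjusted p = 2.29e-10, or 2.78-fold, and the nearest strain mean, that of C57BL/6J, was 1.39 below. Mybl1 encodes A-MYB, the transcription factor that drives the gene programme of pachytene spermatocytes. It read 9.54, 9.68 and 9.65 in C3HeB/FeJ against 7.97 to 8.69 (median 8.31) in the other strains. The difference was 1.33 ± 0.0832, adjusted p = 3.10e-09, or 2.52-fold, with A/J nearest at a distance of 1.16. Mybl1 was the only one of the 30 measured spermatocyte genes listed here that was apart.

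Slc25a2, which encodes a mitochondrial ornithine carrier, read 10.43, 10.44 and 10.57 against 9.26 to 9.66 (median 9.53), a difference of 0.97 ± 0.0498, adjusted p = 2.29e-10. Every C3HeB/FeJ array was above every other array. Aass, which encodes the enzyme that starts lysine breakdown, read 5.57, 6.10 and 5.81 against 4.68 to 5.21 (median 4.80), a difference of 0.97 ± 0.0904, adjusted p = 5.86e-07. Cdkn2b, the cyclin-dependent kinase inhibitor p15, read 8.33, 8.49 and 8.28 against 7.38 to 7.81 (median 7.65), a difference of 0.74 ± 0.07, adjusted p = 6.22e-07. Both were separated without overlap, Aass at a low signal and Cdkn2b at a moderate one. The transcript 9630013D21Rik was dimmer still, with 4.94, 5.09 and 4.98 against 3.95 to 4.48 (median 4.27), a difference of 0.75 ± 0.0687, adjusted p = 4.20e-07.

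A large difference from the mean of the others did not always go with a large distance from the nearest strain. The predicted gene Gm19589 had the widest difference among the higher genes, 2.31 ± 0.0686, adjusted p = 1.62e-13, with C3HeB/FeJ arrays at 7.40, 7.57 and 7.26. C57BL/6J was intermediate at 6.74, and the other 4 strain means lay between 4.61 and 4.78. The transcript 1810012K16Rik was 6.94, 7.13 and 7.18 in C3HeB/FeJ, 6.26 to 6.52 in C57BL/6J, A/J and 129S2, 4.75 in AKR/J and 4.85 in DBA2/J. Ada, the adenosine deaminase of purine salvage, was 1.03 from the mean of the others but 0.29 from DBA2/J, where it read 6.70.

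**Figure D1:**
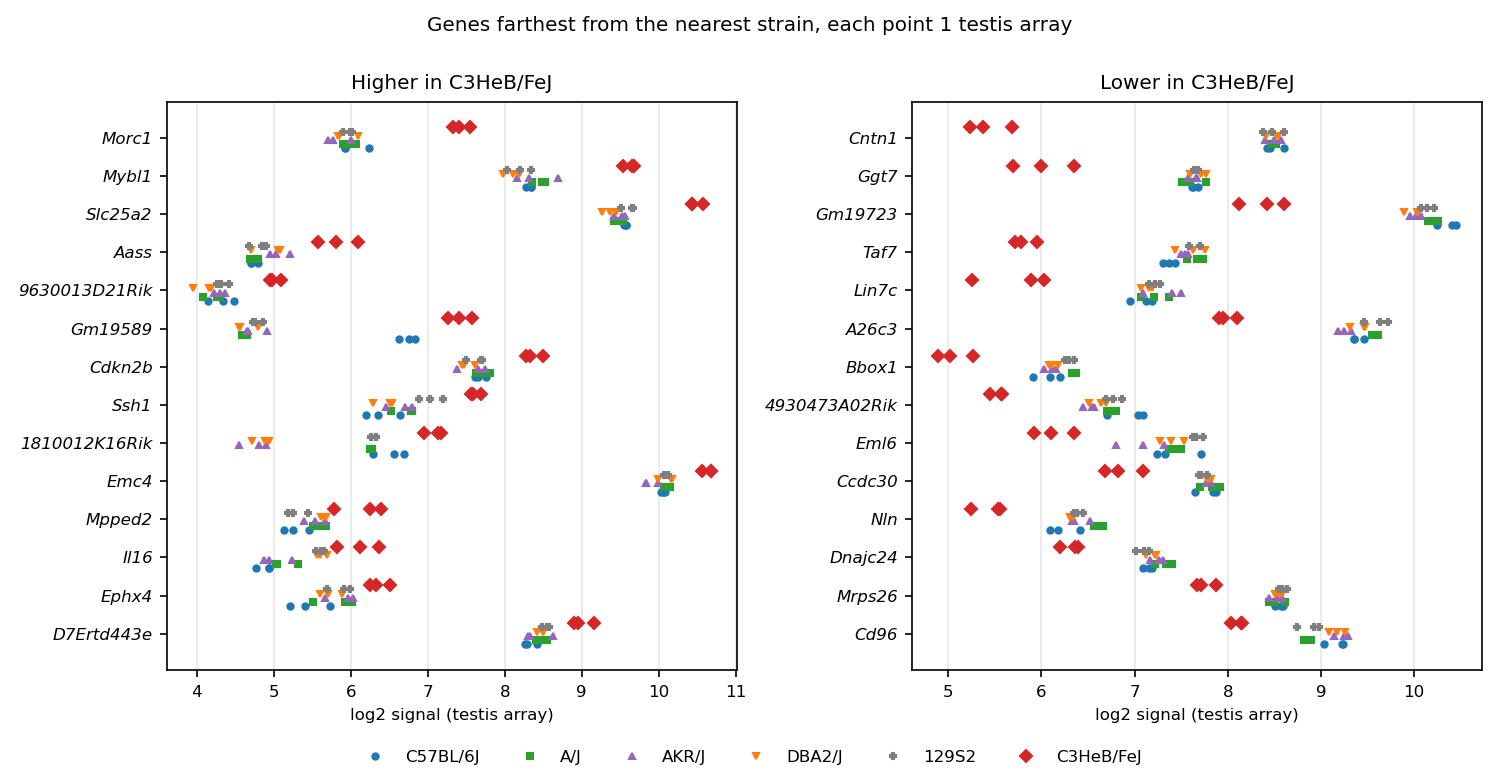
Log2 signal (horizontal axis) on every testis array for the 14 genes higher and the 14 genes lower in C3HeB/FeJ that lay farthest from their nearest strain mean, with 1 point per array and 1 marker per strain. The C3HeB/FeJ points (red diamonds) sit to one side of all 15 others in each row, by the most for Cntn1 on the right (5.23 to 5.68 against 8.38 to 8.60) and for Morc1 on the left (7.32 to 7.54 against 5.70 to 6.23), while C57BL/6J stands between for Gm19589.

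Of apart genes picked for a role in cell division or meiosis, Psma8 was higher, which encodes the proteasome alpha subunit specific to meiotic germ cells. Psma8 read 11.42, 11.60 and 11.56 in C3HeB/FeJ and 10.64 to 11.13 (median 10.79) in the others, a difference of 0.67 ± 0.0466, adjusted p = 1.36e-08. Cenpk, a kinetochore gene, was lower (-0.45 ± 0.049, adjusted p = 3.73e-06), as was Cspp1, a centrosome and spindle gene (-0.27 ± 0.0421, adjusted p = 0.00023). Of 3 other probe sets of Cspp1, 1 passed in the same direction (-0.27) and a dimmer 1 in the opposite direction (0.26). C3HeB/FeJ arrays of Cenpk reached 8.43 and the lowest other array was 8.47, so this separation was narrow.

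Microtubule and cilium proteins serve the sperm tail in testis, and the apart genes described here were picked for that role. Ift57, a component of intraflagellar transport, was higher, with 10.71, 10.69 and 10.75 against 9.91 to 10.49 (median 10.17), a difference of 0.53 ± 0.0413, adjusted p = 6.17e-08. Ttc30a2, of another intraflagellar transport family, was lower, with 10.54, 10.75 and 10.66 against 11.22 to 11.48 (median 11.33), a difference of -0.69 ± 0.0545, adjusted p = 7.31e-08. Neither overlapped the other strains. Tpgs2, a subunit of the complex that adds glutamate side chains to tubulin, had a difference of -0.21, and a dimmer probe set of it went the other way (1.29). Agbl4, a carboxypeptidase that removes such side chains, had a difference of -0.34, and its brightest probe set of -0.66. The microtubule-associated gene Eml6 was lower by more, at 5.92, 6.11 and 6.35 against 6.80 to 7.74 (median 7.39), a difference of -1.27 ± 0.101, adjusted p = 7.31e-08. Ssh1, the phosphatase that activates the actin-severing protein cofilin, was higher, at 7.56, 7.59 and 7.69 against 6.19 to 7.20 (median 6.64), a difference of 0.97 ± 0.0906, adjusted p = 5.93e-07. No other probe set of Ssh1 passed, and its probe set with the highest testis mean gave -0.034.

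Among enzymes of metabolism, picked from the 113 genes for their role, Sod2, the mitochondrial superoxide dismutase, was higher by a small and even amount, with 11.36, 11.40 and 11.44 against 10.98 to 11.21 (median 11.08), a difference of 0.31 ± 0.0379, adjusted p = 1.50e-05. Me2, a mitochondrial malic enzyme, and Acss2, which makes acetyl-CoA from acetate, were higher by 0.37 and 0.31. G6pd2, the intronless testis copy of glucose-6-phosphate dehydrogenase, was lower, at 7.69, 7.65 and 7.85 against 8.13 to 8.59 (median 8.28), a difference of -0.57 ± 0.0785, adjusted p = 5.98e-05. Bco1, which cleaves beta-carotene to retinal, was lower, at 8.28, 8.43 and 8.59 against 8.96 to 9.74 (median 9.52), a difference of -0.99 ± 0.0676, adjusted p = 9.70e-09. Of the purine enzymes, Ada was higher and Adal, an adenosine deaminase-like gene, was lower (-0.83 ± 0.0614, adjusted p = 3.06e-08). Mgst2, a microsomal glutathione transferase, was higher, at 8.26, 8.17 and 8.38 against 6.86 to 7.99 (median 7.67), a difference of 0.70 ± 0.0431, adjusted p = 2.92e-09.

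The paralogous inhibitors of calcium/calmodulin-dependent kinase II went opposite ways. Camk2n1 read 8.24, 8.43 and 8.55 in C3HeB/FeJ and 8.69 to 9.62 (median 9.26) in the others, a difference of -0.84 ± 0.0663, adjusted p = 6.93e-08. Camk2n2 read 8.46, 8.42 and 8.45 against 7.14 to 8.12 (median 7.82), a difference of 0.71 ± 0.0522, adjusted p = 2.75e-08. Both were outside the range of all 15 other arrays. Genes of protein synthesis included Mrps26 and Mrpl24, of the small and the large mitochondrial ribosomal subunit, with differences of -0.79 and -0.24. Eif3k, a subunit of initiation factor eIF3, was lower at -0.55 ± 0.0368, adjusted p = 7.65e-09, and Eif2b5, the catalytic subunit of eIF2B, was higher at 0.31 ± 0.0431, adjusted p = 6.20e-05. Flcn and Nprl3, which act on amino acid signalling to mTORC1, were both lower, by differences of -0.63 and -0.28.

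A few of the 113 genes are best known from immune cells. Cd96, a receptor of T and NK cells, read 8.04, 8.14 and 8.16 in C3HeB/FeJ against 8.74 to 9.28 (median 9.08), a difference of -0.95 ± 0.0572, adjusted p = 2.06e-09. Lcn2, an iron-binding lipocalin of innate immunity, read 10.69, 10.68 and 10.71 against 11.01 to 11.60 (median 11.35), a difference of -0.64 ± 0.0571, adjusted p = 3.25e-07. H2-DMa, which loads peptides onto MHC class II, and Nckap1l, a WAVE complex gene of blood cells, were lower by smaller amounts (-0.31 and -0.42). A brighter probe set of Nckap1l had a difference of -0.18 and did not pass (adjusted p = 0.0574). Il16, a cytokine precursor, was higher at 5.82, 6.37 and 6.11 against 4.76 to 5.70 (median 5.24), a difference of 0.85 ± 0.0911, adjusted p = 3.11e-06, and was no longer apart without C3HeB/FeJ array 2 (0.72) or DBA2/J array 1 (0.85). None of the 3 other probe sets of Il16 passed, and the one with the highest testis mean had a difference of 0.11. The macrophage markers averaged 6.94 to 6.96 on the C3HeB/FeJ arrays, inside the 6.69 to 7.54 of the other 15, with 1 of 9 passing (C1qb, lower). The part of such cells in these differences was not tested.

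Of the remaining genes among the 14 farthest on each side, Emc4 (a subunit of the endoplasmic reticulum membrane complex), Mpped2, Ephx4 and D7Ertd443e were higher by differences of 0.56 to 0.68. Ccdc30, Nln (the peptidase neurolysin), Dnajc24 (a gene of diphthamide synthesis) and Mrps26 were lower, with differences from -0.94 to -0.79. With the probe set of highest testis mean Nln was at -0.19 and no longer apart, and Ccdc30 turned to 0.15. Ephx4 was no longer apart without any 1 of 6 arrays (129S2 2, 129S2 3, A/J 1, AKR/J 1, C3HeB/FeJ 2 or C3HeB/FeJ 3; 0.54 to 0.63). Mpped2 was no longer apart without C3HeB/FeJ 1, C3HeB/FeJ 3 or DBA2/J 1 (0.55 to 0.67).

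Genes near the limit of the rule had similar values on its 2 sides. Just inside were Adssl1 (difference -0.50, largest of its adjusted p-values 0.0499), Dele1 (-0.35, 0.0498) and Fbxw27 (0.38, 0.0473). Just outside were Dynlrb1 (-0.41, 0.0514), Pla2g12a (0.68, 0.0523) and Ocel1 (0.31, 0.0531). The 3 genes just inside dropped out without any 1 of 13 to 16 of the 18 arrays, with differences from -0.53 to -0.33 for the lower ones and 0.36 to 0.40 for Fbxw27.

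Lists of testis cell types and pathways were then read as a description. Over all lists 42 of 367 measured genes passed the contrast (11.4%, against 10.4% of all genes tested), and 2 were apart, Mybl1 and Mgst2. No list median lay farther than 0.134 from 0, with that of all genes at 0.00. None of 23 elongating spermatid genes passed, none of 23 acrosome and egg-binding genes, and none of 8 peritubular genes. Averaged over the list, elongating spermatid genes read 11.64 to 11.69 in C3HeB/FeJ and 11.60 to 11.70 in the others.

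Among 30 meiotic spermatocyte genes, 3 were higher and 2 lower. Mybl1 was followed by Mei1 (-0.24), Meiob (0.23), a gene of meiotic recombination, and Sycp1 (0.16), of the synaptonemal complex. Mei1 lost its call without C3HeB/FeJ 1 (-0.19), Meiob without C3HeB/FeJ 2 or 3 (0.19 to 0.21), and Sycp1 without any 1 of 14 arrays (0.14 to 0.17). The list averaged 9.05 in C3HeB/FeJ, within the 8.93 to 9.13 of the others. Of 10 spermatogonial genes, Stra8, the retinoic acid target of meiotic entry, was lower (-0.29 ± 0.0579, adjusted p = 0.00251) and the stem cell factor receptor Kit was higher (0.22), a call lost without any 1 of 8 arrays (0.17 to 0.22). Of 20 piRNA pathway genes 2 were higher and 2 lower, led by Tdrd12 (-0.35 ± 0.0527, adjusted p = 0.000163), with Exd1 (0.23), Tdrd1 (-0.22) and Pnldc1 (0.15). The call of Exd1 was lost without any 1 of the C3HeB/FeJ arrays (0.21 to 0.24), that of Tdrd1 without C3HeB/FeJ 1 (-0.16) and that of Pnldc1 without any 1 of 7 arrays (0.11 to 0.15).

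Sertoli cell genes had 3 of 19 lower and none higher. Cst9, a cystatin of Sertoli cells, read 8.52, 8.53 and 8.62 in C3HeB/FeJ with a difference of -1.88 ± 0.0538, adjusted p = 1.09e-13. It was not apart: A/J and DBA2/J were nearly as low (8.77 each) while C57BL/6J, AKR/J and 129S2 averaged 11.47 to 11.64. Ctsl (-0.21 ± 0.0439, adjusted p = 0.00402) and Tsx (-0.18) were lower by little, and Tsx lost its call without C3HeB/FeJ 1 or 2 (-0.17 to -0.16). The list averaged 8.59 to 8.61 on the C3HeB/FeJ arrays and 8.62 to 8.99 on the others. Without Cst9 it averaged 8.59 to 8.62, inside the 8.55 to 8.84 of the others. The part of Sertoli cells in the other differences was not tested. Of 10 Leydig cell genes 2 were lower. Cyp11a1, the enzyme that starts steroid synthesis from cholesterol, read 9.73, 9.44 and 9.55 against 9.72 to 11.00 (median 10.17), a difference of -0.67 ± 0.0804, adjusted p = 1.30e-05, and Tspo was at -0.20, a call lost without any 1 of the C3HeB/FeJ arrays (-0.22 to -0.16). Cyp11a1 was not apart, with 129S2 nearest at 9.84 and the highest C3HeB/FeJ array above the lowest of the others. The Leydig list averaged 9.43 to 9.50 in C3HeB/FeJ, within the 9.25 to 10.01 of the others.

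Sperm tail genes had 3 of 37 higher and 1 lower. Cfap61, a gene of the radial spokes, read 9.52, 9.65 and 9.52 in C3HeB/FeJ (0.63 ± 0.0512, adjusted p = 9.54e-08), but A/J was close at 9.48. Cfap43 was lower (-0.45 ± 0.044, adjusted p = 9.13e-07), although C57BL/6J was lower still at 8.52, and the gene's probe set with the highest testis mean gave the opposite sign (0.33). Cfap69 (0.21) was higher, a call that was lost without 129S2 (0.13), and Odf4 (0.13) lost its call without any 1 of 16 arrays (0.12 to 0.14). Among 29 testis ADAM and serine protease genes, Adam6b (-0.39 ± 0.0517, adjusted p = 3.57e-05) and Adam26a (-0.30 ± 0.0596, adjusted p = 0.00233) were lower and none was higher. Of 15 germ cell energy genes, Slc25a31, the testis ADP/ATP carrier, was lower (-0.32) and lost its call without C3HeB/FeJ 1 (-0.26). Eno4, the sperm enolase, was lower (-0.27) and lost its call without 129S2 (-0.13).

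MHC class I genes had 2 of 19 lower and none higher. H2-K1 read 7.15, 7.30 and 7.11 in C3HeB/FeJ, a difference of -1.60 ± 0.0682, adjusted p = 1.74e-11, and AKR/J was at the same level (7.19), with A/J at 7.27 and the other strains at 9.74 to 9.92. H2-D1 read 7.11, 7.07 and 6.69 (-1.07 ± 0.122, adjusted p = 7.47e-06), with AKR/J next at 7.15 and the rest at 7.84 to 8.51. Of its 8 other probe sets 6 passed in the same direction, and 1 passed in the opposite one (2.20). C3H and AKR strains are known to carry the same k haplotype of this locus, whose genes are near-identical copies that share probes. The part of haplotype and of shared probes in the values of H2-K1 and H2-D1 was not tested. The list averaged 6.70 to 6.76 in C3HeB/FeJ and 6.74 to 7.03 in the others, and without these genes 6.68 to 6.71, inside the 6.64 to 6.88 of the others. Of 27 interferon-response genes, Stat2, a mediator of type I interferon signals, was higher (0.94 ± 0.102, adjusted p = 3.51e-06), with A/J (6.51) and 129S2 (6.34) near it.

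Lysosomal hydrolase genes had 2 of 27 higher and 5 lower. Galc, the galactosylceramidase, was higher than the mean of the others by 0.62, with 129S2 at 4.48 and the remaining 4 strains at 7.51 to 7.65. Without 129S2 the difference was 0.01. Glb1, the lysosomal beta-galactosidase, was higher (0.59 ± 0.0715, adjusted p = 1.56e-05), with A/J as high at 7.35. Sgsh (-0.31) and the cathepsin gene Ctsb (-0.31) were lower, and Sgsh lost its call without C3HeB/FeJ 3 (-0.25). Of 21 glutathione transferase genes 2 were higher, led by Mgst2, and 3 lower: Gstm6 (-0.56 ± 0.079, adjusted p = 7.31e-05), Gsta3 (-0.28) and Gsta2 (-0.23). Gsta3 lost its call without C3HeB/FeJ 1 or 2 (-0.26) and Gsta2 without any 1 of 10 arrays (-0.25 to -0.15).

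The remaining lists held few passing genes. Of 17 cholesterol synthesis genes, Hmgcs1 was lower (-0.24), a call lost without any 1 of 14 arrays (-0.29 to -0.16). Of 9 macrophage genes, C1qb was lower (-0.24), lost without any 1 of 10 arrays (-0.24 to -0.17). Of 8 endothelial genes, Tie1 was higher at a dim signal (0.26), lost without C3HeB/FeJ 1 or 3 (0.21 to 0.22). None of 3 erythroid and 5 adipose genes passed. Of 7 epididymis genes Rnase10 was lower (-0.54 ± 0.0738, adjusted p = 5.45e-05). It read 4.19, 4.10 and 4.09 in C3HeB/FeJ and 4.01 to 4.07 in A/J, AKR/J and 129S2, but 5.50 in C57BL/6J and 5.74 in DBA2/J.

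**Figure D2:**
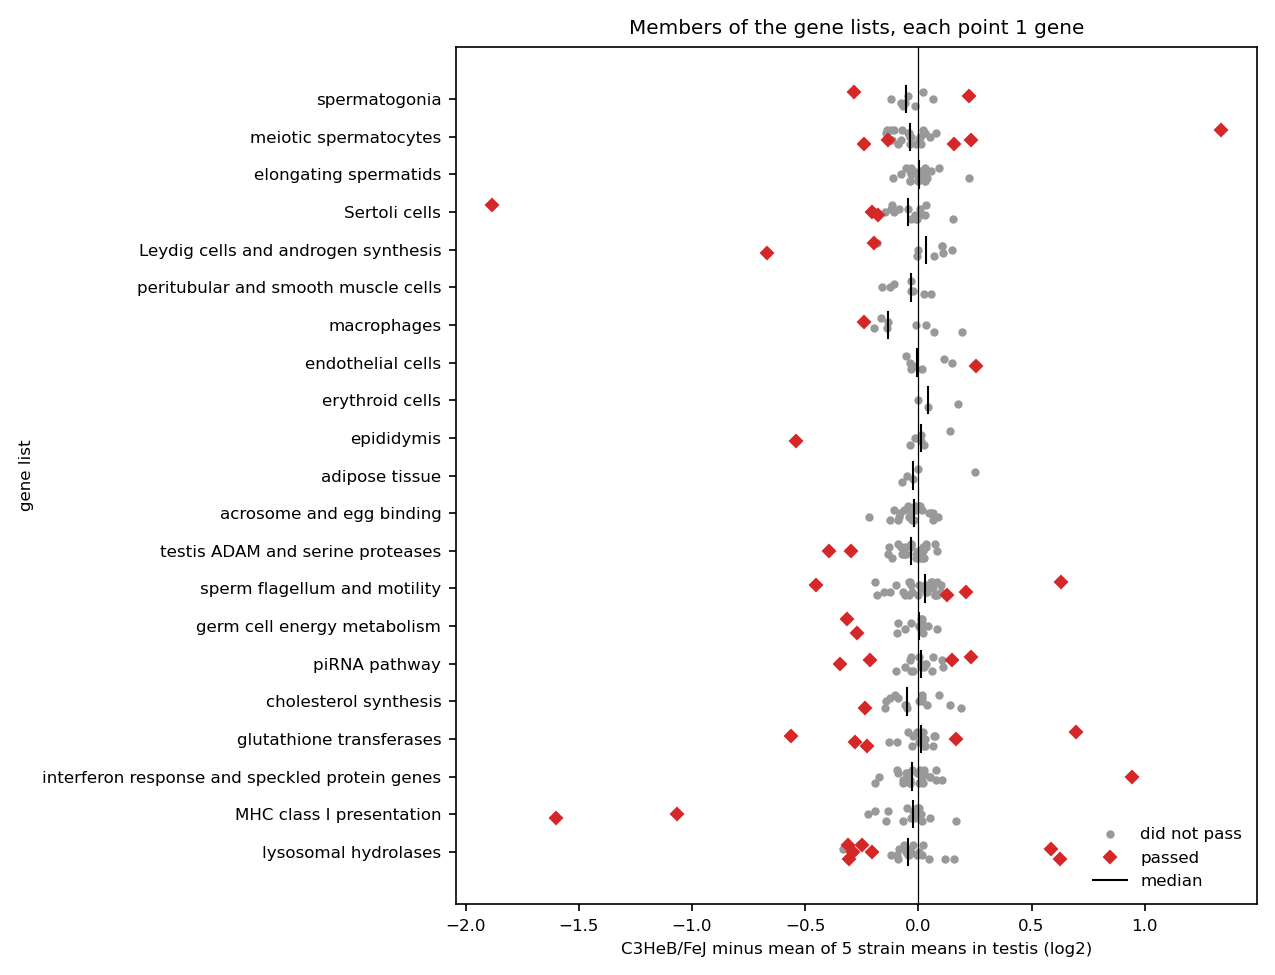
Difference between C3HeB/FeJ and the mean of the 5 other strain means in testis (log2, horizontal axis) for each measured gene of 21 lists (rows), with the list median as a black bar and genes that passed the contrast as red diamonds. Medians lie within 0.134 of 0, and single genes such as Cst9 (-1.88), H2-K1 (-1.60), Stat2 (0.94) and Mybl1 (1.33) lie far outside their lists.

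Of the genes at which C3H strains carry known alleles, 3 were measured and none passed the contrast in testis. Gusb read 6.92, 6.61 and 6.93 in C3HeB/FeJ and 6.07 to 7.18 (median 6.61) in the others, a difference of 0.16 ± 0.0664, adjusted p = 0.173. Strain means of Gusb ran from 6.18 in 129S2 to 7.16 in A/J, with C3HeB/FeJ at 6.82 between. Sp110, which lies in the tuberculosis susceptibility region, had a difference of -0.036 ± 0.0663, adjusted p = 0.847. Pde6b, a photoreceptor gene, was dim on all 18 arrays (4.30 to 4.90) and had a difference of 0.05 ± 0.071, adjusted p = 0.789. In other tissues Sp110 was lower and apart in lung (-0.88) and heart (-0.55), while brain (-0.011), kidney (-0.068) and liver (-0.062) had small differences that did not pass.

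The same contrast was fitted in brain, heart, kidney, liver and lung. Their C3HeB/FeJ titles carry the same 3 numbers as in testis, and these were taken as the same animals. Of the 113 genes, 100 were apart in no other tissue in the same direction, 4 in 1 or 2, and 9 in 3 or more. The number apart in the same direction was 10 in lung (0.599% of all genes apart in either direction), 10 in kidney (0.962%), 7 in liver (0.335%), 7 in brain (0.291%) and 6 in heart (0.22%). Acss2 was apart in the opposite direction in brain (-0.28). A passing contrast in the same direction was found for 26 genes in lung (12.8% of all genes passed in either direction), 23 in kidney (13.9%), 21 in brain (4.72%), 19 in heart (5.53%) and 18 in liver (6.89%). It passed in the direction opposite to testis for 8 genes in lung, 10 in kidney, 7 in brain, 3 in heart and 8 in liver. For 56 genes the contrast passed in none of the other 5 tissues. The share of all genes tested that passed, or were apart, in none of these tissues is not given here. Nothing is therefore read from the counts of 56 and 100.

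The difference between the testis contrast and the mean contrast of the 5 other tissues was tested in 1 model of all arrays. It passed for 8.96% of all genes and for 98 of the 113. The genes had been chosen on the testis contrast, which forms part of this difference, so the count is a description. In 96 the testis contrast was the larger in its direction. Wide ones were those of Cntn1 (-2.97, adjusted p = 2.38e-34), Gm19589 (2.31, adjusted p = 3.61e-39), Gm19723 (-1.79, adjusted p = 2.92e-29), Ggt7 (-1.56, adjusted p = 1.06e-22), Morc1 (1.48, adjusted p = 9.52e-25) and A26c3 (-1.39, adjusted p = 1.41e-26). The brain arrays of Cntn1 averaged 12.51 in C3HeB/FeJ, with a brain difference of 0.0078. Morc1 and Slc25a2 were dim outside testis (3.08 to 3.93 in C3HeB/FeJ), so that their contrasts elsewhere, between -0.17 and 0.10, bear only on low signals. Mybl1 was higher in brain (0.42) and lung (0.41) too, but at signals of 4.51 to 5.05 and not apart there. Mrps26 had opposite signs, -0.79 in testis and 0.36 in liver.

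A smaller group differed in most or all tissues. Nln, Lin7c and Ssh1 were apart in the same direction in all 5 other tissues. For Nln the difference ran from -0.77 in heart to -1.75 in liver, and that of testis (-0.94) was smaller than their mean (testis minus mean 0.37, adjusted p = 0.000227). Lin7c ran from -0.44 in liver to -1.10 in brain and was more negative in testis (-0.73, adjusted p = 5.16e-10). Ssh1 ran from 0.68 in lung to 1.30 in liver, and its testis difference was not shown to differ from their mean (0.0010 ± 0.129, adjusted p = 0.998). Taf7 and 9630013D21Rik were apart in 4 other tissues, and Zfp839, a zinc finger gene, Ccdc30, Eml6 and Tpgs2 in 3. For 9 genes the contrast passed in the same direction in all 5 other tissues. These include Adal, Eif3k and Emc4, which were apart in at most 1 of them. Tpgs2 was the other gene with a smaller testis difference, -0.21 against -0.78 in lung (0.28, adjusted p = 0.0118).

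**Figure D3:**
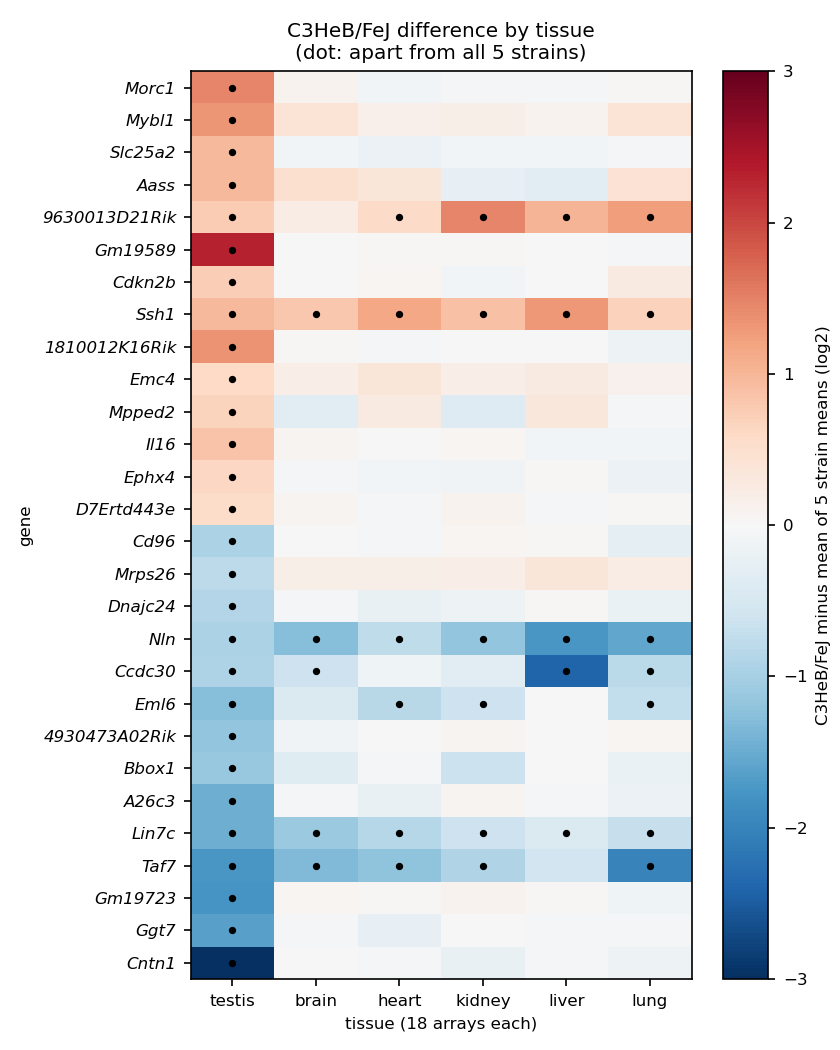
Difference between C3HeB/FeJ and the mean of the 5 other strain means (colour, log2, 18 arrays per tissue) for the 28 genes farthest from their nearest strain in testis (rows) in each of 6 tissues (columns), with a dot where the gene was apart from all 5 strains. The contrast of 14 of the 28 genes passed in no other tissue, as for Cntn1 (-3.06 in testis, 0.01 in brain). The share of all genes that did so is not given here. Nln, Lin7c and Ssh1 have a dot in every tissue.

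Other probe sets of the same genes gave a second reading. Of the 113 genes 62 had a single probe set, and the other 51 had 105 further ones. The contrast passed in the same direction for 42 of these, in the opposite direction for 7 and not at all for 56, of which 44 had a mean under 6 in testis. At least 1 other probe set passed in the same direction for 30 of the 51 genes, and none passed for 18. The share of all single-gene probe sets that passed is not given here, so nothing is read from these counts. Mybl1 was read alike by its other probe set (1.20), as were Emc4 (0.58), Camk2n1 (-1.11) and Dnajc24 (-0.57). For Ryr3, 1 other probe set was higher by 1.24 against 0.52 in the probe set used, and another (0.028) did not pass. All 3 other probe sets with a passing contrast for Dzip3 were lower (-0.61 to -1.07), as was the one used (-0.49). The remaining 2 of Dzip3 had differences of -0.010 and -0.038 and did not pass.

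In several genes the probe sets disagreed, and the strains' sequences under the probes were not analysed here. Cntn1's other 2 probe sets, dim at 4.15 and 5.14 in C3HeB/FeJ, had differences of 0.06 each. Lin7c was lower by 2 of its other probe sets (-3.58 and -1.47) and higher by the third (0.38), which had the highest testis signal (9.29 in C3HeB/FeJ with a mean of 8.97 over all 18 arrays). For Taf7 a second probe set was lower (-2.12) and another, near 3.4, was not (-0.11). Ccdc30 was lower by 3 other probe sets and higher by its brightest (0.15). Ssh1 had 3 other probe sets with differences of -0.03 to 0.08, none of which passed, so its shift in 6 tissues rests on 1 probe set. In 1700003H04Rik and Tpgs2 an opposite probe set (1.28 and 1.29) was dimmer than the one used.

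**Figure D4:**
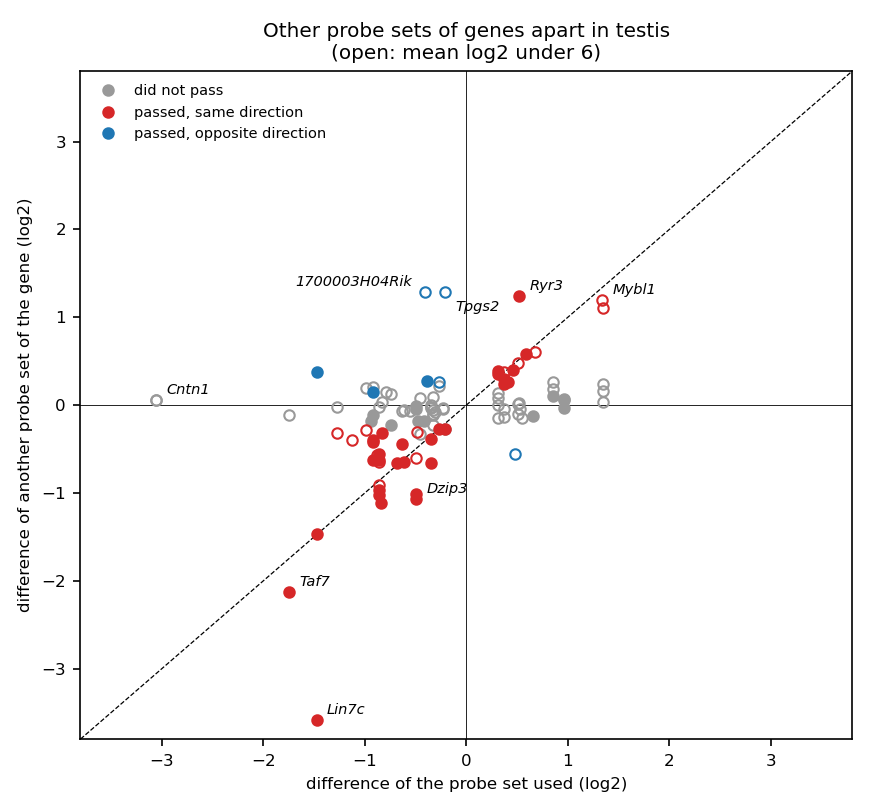
Difference (log2) of every other single-gene probe set of the 51 apart genes that have one (vertical axis) against that of the probe set used (horizontal axis), with open symbols for a mean under 6 in testis and the diagonal as the line of equal values. Red symbols, 42 probe sets that passed in the same direction, fall in the lower left and upper right. The 7 blue ones passed in the opposite direction. Cntn1 lies near 0.06 on the vertical axis at -3.06 on the horizontal one. The share of all single-gene probe sets that passed is not given here.

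The 113 genes, 0.621% of all genes tested, were spread over all autosomes. The share was 1.84% on chromosome 16 (11 of 598 measured genes) and 1.49% on chromosome 2 (21 of 1407). It was 1.30% on chromosome 18 (6 of 463) and 1.10% on chromosome 4 (12 of 1095). The lowest share of an autosome was 0.199%, on chromosome 9 (2 of 1006), and none of 618 genes on the X was apart. Nothing is read from these counts. No 3 adjacent measured genes were apart in 1 direction. Adjacent pairs numbered 8, of which 3 had a common direction: 4930473A02Rik and Mrps26, 1700006A11Rik and 1700003H04Rik, and 6820431F20Rik and 2610005L07Rik. The last of these pairs had differences of -1.13 and -0.86, and 6 of the 7 other probe sets of 2610005L07Rik were lower too. In the other 5 pairs neighbours differed in direction, as with Slc25a2 (higher) and Taf7 (lower), Ggt7 (lower) and Acss2 (higher), and Lin7c (lower) and Lgr4, an R-spondin receptor (higher).

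Stretches of 25 consecutive measured genes were ranked by how many were apart, a window length chosen after earlier results were known. The stretch on chromosome 2 from Dnajc24 to Ryr3 held 9, of which Mpped2, Lgr4, Emc4 and Ryr3 (a calcium release channel) were higher and Dnajc24, Mettl15, Lin7c, Bbox1 and A26c3 were lower. On chromosome 16 the stretch from Plcxd2 to Dubr held 6, with Morc1, Ift57 and Dubr higher and Cd96, Dzip3 and Gm19723 lower. The other stretches with as many as 3 lay on chromosomes 2, 8 and 18. The stretches were picked for these counts, so nothing is read from their size. Besides the apart genes, 2 further genes passed the contrast in the stretch from Dnajc24 to Ryr3 and 2 in that from Plcxd2 to Dubr.

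**Figure D5:**
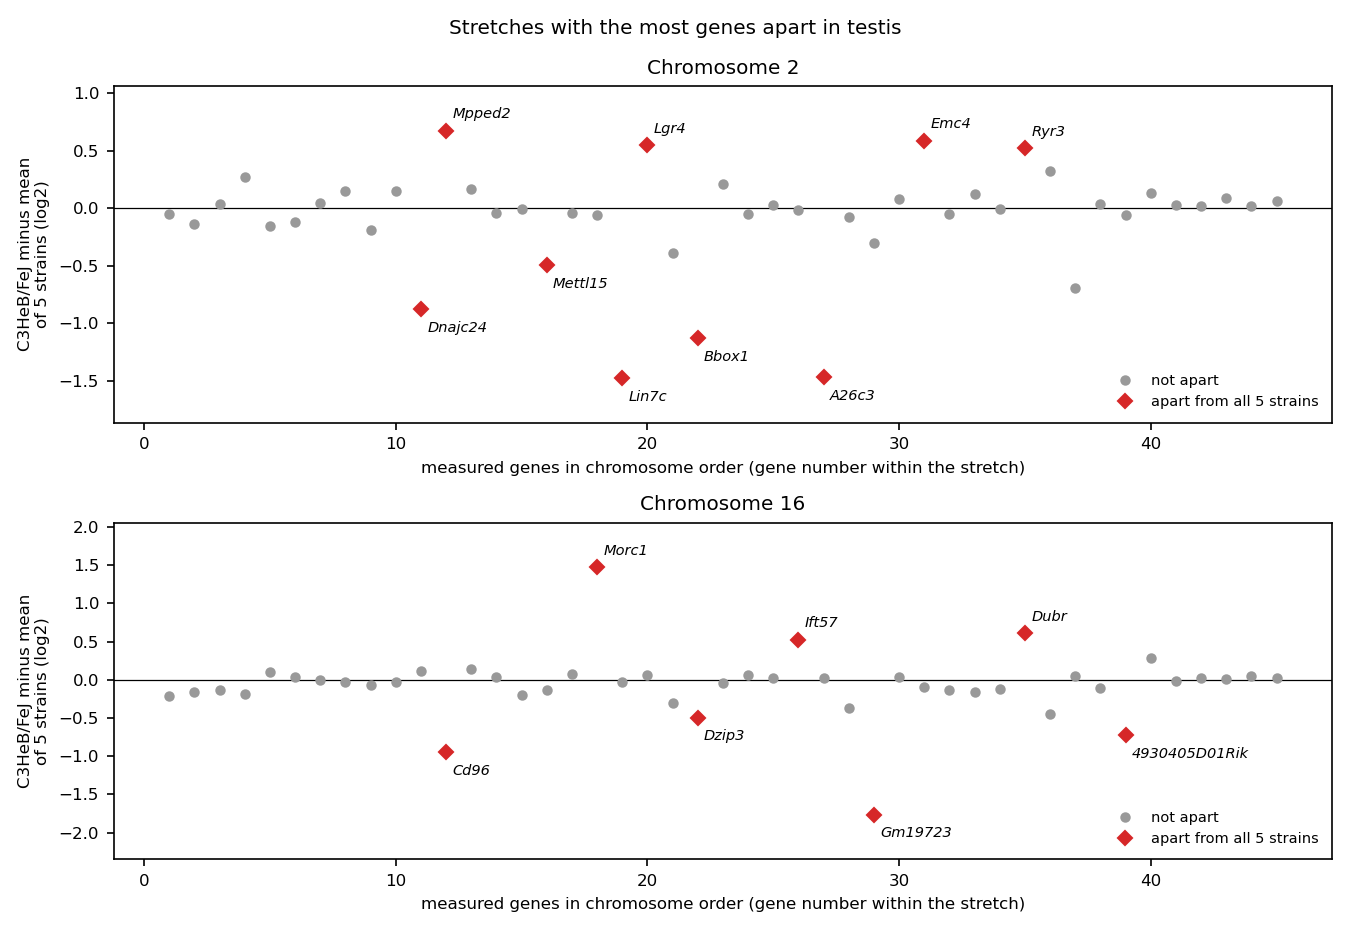
Difference between C3HeB/FeJ and the mean of the 5 other strain means in testis (log2, vertical axis) for measured genes in chromosome order (horizontal axis, gene number within the stretch), with 10 genes drawn on either side of the 25. Red diamonds mark genes that are apart from all 5 strains. On chromosome 2 they fall on both sides of 0, from Lin7c (-1.47) to Mpped2 (0.68), and on chromosome 16 from Gm19723 (-1.76) to Morc1 (1.48), with 4930405D01Rik just beyond the 25.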

How the data were processed

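The deposited values are log2 signals of 45101 probe sets per array, made by the authors with RMA (background correction, quantile normalization and summary of probes), per the submitters' processing notes; the version and the arrays normalized together are not given in the sources used here. Differences between strains were therefore taken within a tissue only. Where signals of different tissues are set side by side, this is a rough description. Probe sets were named through the platform annotation (64 controls, 9160 with no gene and 932 with several genes were left out, and 34741 of 34945 with 1 gene were matched by gene ID), and the one with the highest mean over all arrays was kept for each gene. The 18 testis arrays were fitted in limma 3.58.1 (R 4.3.3) with a mean for each strain, with Benjamini-Hochberg adjustment over 18193 genes and 12 residual degrees of freedom. The tissue comparison used every array, a mean for each strain and tissue, and a random block for the animal (consensus correlation 0.0184). An animal was taken as the strain and number of the title. Tables were made with pandas 2.3.3 in Python 3.11.15, and the fit was tested on simulated data with known changes.

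Named genes are the 14 higher and 14 lower genes farthest from their nearest strain, up to 4 passing members of each list, the measured genes with known C3H alleles, the 6 genes in each direction with the widest tissue difference, and 3 on either side of the limit; other genes named for their role, chromosome or probe sets were chosen after their values were seen. The set of genes and the lists were chosen with earlier results of these data known. Alternatives were another choice of probe set, a minimum mean of 6, other normalizations, another prior, the replicate number as a block, leaving out 129S2 or each testis array, and other rules for a gene that is apart.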

Additional observations from a re-analysis of the deposited data

Results flagged for a closer look

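The C3HeB/FeJ difference in testis was set against the mean of the same difference in brain, heart, kidney, liver and lung, and the named genes for which these differed (limma, Benjamini-Hochberg adjusted over all genes) are given here. The value is the testis difference minus that mean, in log2 units. Since the apart genes were chosen on the testis difference, a wide value for them is partly built in.

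Among genes lower in C3HeB/FeJ testis, the value was negative for Cntn1 (-2.97), Gm19723 (-1.79), Ggt7 (-1.56), A26c3 (-1.39), 6820431F20Rik (-1.34), Camk2n1 (-1.21), 4930473A02Rik (-1.20), Mrps26 (-1.02), Cd96 (-0.90), Bbox1 (-0.88), Dnajc24 (-0.76), Eml6 (-0.74), Lin7c (-0.73), Adssl1 (-0.67), Taf7 (-0.55) and Dele1 (-0.37). Among higher genes, it was positive for Gm19589 (2.31), Morc1 (1.48), 1810012K16Rik (1.38), Dubr (1.13), Mybl1 (1.09), Slc25a2 (1.07), Il16 (0.86), Aass (0.83), Mpped2 (0.70), Cdkn2b (0.70), Ephx4 (0.68), Mgst2 (0.65), D7Ertd443e (0.53), Fbxw27 (0.39) and Emc4 (0.36). Adjusted p-values over these 31 genes ran from 3.61e-39 for Gm19589 to 0.000487 for Fbxw27. Many of the other-tissue signals are dim, as for Morc1 and Slc25a2, which were under a log2 signal of 4 in C3HeB/FeJ in all 5 other tissues. The contrast passed in the direction opposite to testis in 5 other tissues for Dubr, in 4 for Mrps26 and Camk2n1, and in 2 for 6820431F20Rik, Mpped2 and Aass.

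In Nln the value was positive (0.37, adjusted p = 0.000227) although the gene was lower in testis, with a wider difference elsewhere, up to -1.75 in liver. Sp110, from the tuberculosis susceptibility region, was not apart in testis and had a value of 0.28 (adjusted p = 0.00136), with differences of -0.88 in lung and -0.55 in heart against -0.036 in testis, and -0.068 to -0.011 in brain, kidney and liver.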

How the results depend on the processing

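The number of genes apart from all 5 strains depended on the rule. When the pairwise tests were replaced by non-overlapping arrays, 128 genes were higher and 136 lower. When the pairwise tests were kept and a distance of at least 1 log2 unit was also asked for, 2 were higher and 7 lower. Without 129S2, 70 were higher and 86 lower. This also removed 1 of the 5 pairwise conditions, and no other strain was left out, so the part of 129S2 itself cannot be told. Without 1 testis array in turn, 32 to 50 genes were apart and higher and 51 to 67 lower, and the contrast gave 550 to 975 higher genes and 638 to 1012 lower ones. In the remaining settings run (probe set, minimum mean, normalization, prior, block, 129S2), the contrast gave 833 to 1078 higher genes and 848 to 1106 lower ones. With the rule unchanged except for the strain left out, 61 of the 113 genes stayed apart in every setting in which they were tested. Each of the 18 arrays left out was among these settings. The fewest that stayed apart in 1 of these settings were 79, without C3HeB/FeJ 3. Taking the probe set with the highest testis mean turned the sign for Ccdc30 (0.15), Lin7c (0.38), Ssh1 (-0.034), Cfap43 (0.33) and Galc (-0.043); the cause was not tested. Small differences without a call changed sign with 1 array: Sp110 ran from -0.067 to 0.014 without 1 array and Pde6b from -0.00701 to 0.091, while Gusb passed without C3HeB/FeJ 2 (0.26). Over 77 named genes 1787 values kept their direction and call, 116 lost the call, 1 gained it and 7 reversed. Same-numbered animals of different strains were not taken as pairs, since their deviations did not correlate in every pair (-0.152 to 0.334 over 26 pairs, median 0.123, against a median of -0.0126 over 109 pairs with other numbers). With the replicate number as a block the contrast gave 994 higher and 1036 lower genes, 50 and 70 were apart, and all 113 genes stayed apart. Without the animal block the tissue difference passed for 1583 genes. With 3 arrays per strain, small differences and dim probe sets (under a log2 signal of 6) are the least certain.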

Other observations

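Some of the genes that were apart in testis have their best-known roles in other tissues. Adamts9, a secreted metalloprotease, had a difference of -0.99, and Pmel, the fibril protein of melanosomes, of -0.68. Cubn, the receptor subunit cubilin, was higher by 0.46 and Smad9, a transducer of BMP signals, by 0.42. Foxp2, a forkhead transcription factor, was lower, at -0.33. Smad9 and Foxp2 were dim, at 5.89 and 4.56 in C3HeB/FeJ. None of the 5 other probe sets of Foxp2 passed, with differences from -0.23 to 0.096. Smad9 was apart in 18 of the 24 settings that tested it. Of the 113 genes 24 have placeholder symbols of the Rik or Gm kind.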
